A study of Mus musculus with 9 samples.

Results

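A set of 10 receptor chain genes was followed through poly-A RNA-seq libraries of mouse blood cell lines: *Il4ra*, *Il13ra1*, *Il2rg*, *Il2ra*, *Il2rb*, *Il7r*, *Il9r*, *Il21r*, *Il10ra* and *Il10rb*. They were matched by gene symbol, and all 10 were found among the 54347 genes of the table. There were 9 libraries, 3 for each of 3 lines. Hox-WT is an immortalized haematopoietic progenitor line from c-Kit-positive bone marrow cells of a wild-type mouse, and Hox-URE is the same kind of line from a mouse homozygous for loss of the URE, the upstream enhancer of *Spi1* (genotype UREd/d). Both Hox lines were held as progenitors by an estradiol-dependent Hoxb8. URE-AML (labelled B22) was grown out of the blasts of an acute myeloid leukaemia in a UREd/d mouse. All cultures held IL-3, IL-6, SCF and β-estradiol, and no IL-4, IL-10 or IL-2 was listed among the additions. Each genotype and disease stage is 1 line, so line, clone, genotype and stage cannot be told apart. The labels do not say whether the replicate libraries were grown as separate cultures, so p-values measure the spread between these libraries, which may be technical.

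The receptors of IL-4, IL-10 and the IL-2 family are built from few chains in changing pairs. IL-4 binds the IL-4 receptor α chain, which then joins either the common γ chain (*Il2rg*) or the IL-13 receptor α1 chain. The γ chain also serves the receptors of IL-2, IL-7, IL-9, IL-15 and IL-21, each with private chains, and its loss causes severe combined immunodeficiency. IL-10 binds its own α chain (*Il10ra*) and then the β chain (*Il10rb*), which is shared with IL-22 and the lambda interferons. The chains have no kinase of their own: JAK1, JAK3 and TYK2 sit on their tails, and STAT6, STAT5 and STAT3 carry the signal of IL-4, of the IL-2 family and of IL-10.

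*Spi1*, which encodes PU.1, was looked at beside the genotype labels. It had 2932, 2832 and 2791 counts in the Hox-WT libraries, 1, 1 and 0 in Hox-URE, and 62, 116 and 148 in URE-AML. Hox-WT had 3640 times the Hox-URE level (exact 95% counting interval 1010 to 30100), and the *Spi1* log2 fold change in URE-AML versus Hox-WT was -4.42 ± 0.28 (SE, edgeR BH-adjusted p = 4.53e-07). URE-AML had 168 times the Hox-URE level (counting interval 46.1 to 1390, edgeR BH-adjusted p = 4.29e-06), though both lines are UREd/d. Its level was thus lower in both UREd/d lines than in Hox-WT, but not alike between them. Library totals were 20331064 to 28588718 counts. The blood cell label was checked with 6 progenitor markers, all of which were at or over 1 CPM (TMM-normalised counts relative to library size) in Hox-WT, with 5 in Hox-URE and 4 in URE-AML. *Ptprc*, the CD45 antigen of nearly all white blood cells and a phosphatase of JAK kinases, had 158 ± 10.2 CPM in Hox-WT (SD, n = 3), 0 counts in all Hox-URE libraries and a mean of 0.0278 CPM in URE-AML. *Cd34* was at 1434 and 926 CPM in the Hox lines and at 0.0135 in URE-AML. The defining CD45 marker was thus not detected in Hox-URE and was under the floor of 3 counts in URE-AML.

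Promoters of the chains are shown for *Il4ra* and *Il2rg*, the pair that makes the IL-4 receptor, and for *Il21r*, which lies next to *Il4ra*. They are from a set of RefSeq promoters on GRCm38.p6 that held 7 of the 10 members. They run from 250 bases before the RefSeq start of the gene to 50 after it, in the direction of the gene. For *Il4ra* that start lies inside the gene span given below, which is from GENCODE. Capitals mark GGAA on either strand (GGAA or TTCC), the core that PU.1 and other ETS factors bind. The windows are chr7:125552021-125552320 (+) for *Il4ra*, chrX:101268206-101268505 (-) for *Il2rg* and chr7:125603179-125603478 (+) for *Il21r*.
Il4ra: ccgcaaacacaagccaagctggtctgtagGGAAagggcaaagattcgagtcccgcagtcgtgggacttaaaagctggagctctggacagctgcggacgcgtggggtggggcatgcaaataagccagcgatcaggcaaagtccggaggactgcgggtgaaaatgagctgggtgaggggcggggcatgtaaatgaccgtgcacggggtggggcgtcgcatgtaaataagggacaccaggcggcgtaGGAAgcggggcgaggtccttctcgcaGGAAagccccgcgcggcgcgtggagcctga
Il2rg: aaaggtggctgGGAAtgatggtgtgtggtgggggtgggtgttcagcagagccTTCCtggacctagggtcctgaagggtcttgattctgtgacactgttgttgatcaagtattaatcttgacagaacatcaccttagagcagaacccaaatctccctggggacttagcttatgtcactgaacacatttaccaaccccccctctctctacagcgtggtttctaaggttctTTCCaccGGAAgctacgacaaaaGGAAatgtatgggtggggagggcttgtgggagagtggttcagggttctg
Il21r: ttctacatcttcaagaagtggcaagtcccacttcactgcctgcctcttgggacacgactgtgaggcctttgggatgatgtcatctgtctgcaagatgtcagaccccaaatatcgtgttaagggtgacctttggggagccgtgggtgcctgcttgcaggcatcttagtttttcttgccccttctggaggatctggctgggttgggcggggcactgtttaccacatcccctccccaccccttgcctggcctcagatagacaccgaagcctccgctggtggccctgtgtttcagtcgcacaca
The core was found 3 times in *Il4ra*, 5 times in *Il2rg* and 0 times in *Il21r*. Among the others it occurred 5 times in *Il13ra1*, 4 times each in *Il2ra* and *Il7r*, and 0 times in *Il9r*. Of 32851 promoters of the same length 96.0% held it, with a median of 3 matches. The longer PU.1 site GAGGAAGT, which contains the core, was in 3.2% of promoters and in 0 of the 7. The RUNX core TGTGGT was in 16.8% of promoters, and had 1 match each in *Il2rg*, *Il7r*, *Il9r* and *Il21r*. The STAT sites TTCNNNGAA and TTCNNNNGAA were in 8.3% and 6.95% of promoters, and among the 7 there was 1 match of the first, in *Il7r*. All motifs were sought on both strands.

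The chains *Il2rg*, *Il4ra*, *Il10rb* and *Il21r* were detected in every library. *Il10ra* was detected in Hox-URE, and *Il2ra* and *Il13ra1* were low. *Il7r*, *Il9r* and *Il2rb* had at most 5 counts in any library and were not tested. Of the 7 tested, *Il10ra* and *Il13ra1* reached the count filter through the line in which they were highest, and *Il2ra* through libraries of both Hox lines together. *Il2rb*, which both the intermediate and the high-affinity IL-2 receptor need, had 1 count over all libraries.

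**Figure D1:**
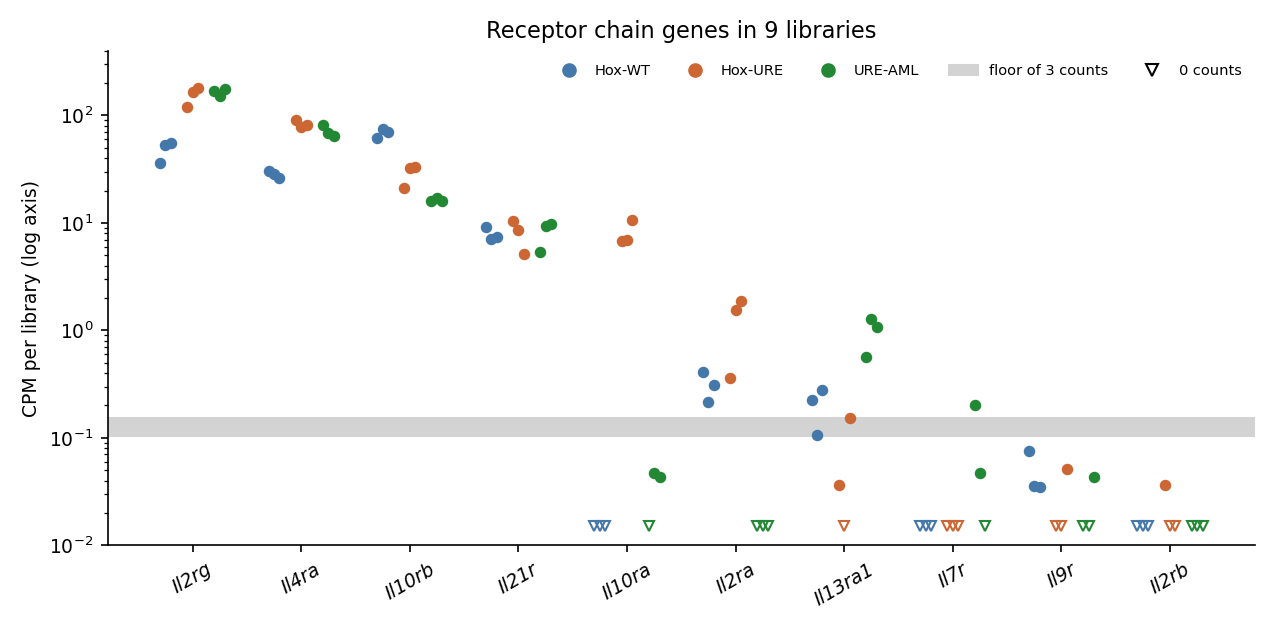
CPM of each of the 10 chains in each library on a log axis, by line, with open triangles for libraries at 0 counts and a grey band for the floor of 3 counts (0.104 to 0.153 CPM). *Il2rg* and *Il4ra* were higher in all libraries of Hox-URE and URE-AML than in those of Hox-WT, *Il10rb* was lower, and *Il10ra* stood over the floor in Hox-URE alone.

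*Il4ra*, the chain that binds IL-4 (ENSMUSG00000030748, chromosome 7, 125552120 to 125579474, + strand, GENCODE M21 on GRCm38), had 820, 797 and 759 counts in Hox-WT, 2475, 1865 and 1612 in Hox-URE, and 2034, 1431 and 1508 in URE-AML. Scaled to CPM the levels were 28.5 ± 2.24, 83.2 ± 6.47 and 71.6 ± 9.24 (SD, n = 3 each). Every library of both UREd/d lines was above every Hox-WT library, and the ranges of Hox-URE and URE-AML overlapped. *Il4ra* rose by a log2 difference of 1.55 ± 0.12 (SE, edgeR BH-adjusted p = 3.05e-06) for Hox-URE and of 1.33 ± 0.12 (SE, edgeR BH-adjusted p = 5.2e-06) in URE-AML, each versus Hox-WT. Between URE-AML and Hox-URE the difference was -0.22 (95% interval -0.47 to 0.04, edgeR BH-adjusted p = 0.13).

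*Il2rg*, the common γ chain (ENSMUSG00000031304, chromosome X, 101264378 to 101268255, - strand), had 971, 1483 and 1596 counts in Hox-WT, 3311, 4022 and 3492 in Hox-URE, and 4166, 3167 and 4103 in URE-AML. The levels were 48.2 ± 10.3, 155 ± 30.6 and 165 ± 13 CPM (SD, n = 3 each). The first Hox-WT and the first Hox-URE library were the lowest of their lines, at 36.4 and 121 CPM, and Hox-WT did not overlap with the UREd/d lines. *Il2rg* rose with log2 fold changes of 1.69 ± 0.18 (SE, edgeR BH-adjusted p = 3.68e-05) for Hox-URE and 1.78 ± 0.18 (SE, edgeR BH-adjusted p = 1.76e-05) in URE-AML, versus Hox-WT. URE-AML and Hox-URE differed by 0.09 (95% interval -0.31 to 0.48, edgeR BH-adjusted p = 0.694).

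The comparisons with Hox-WT share its libraries, and each gives its own value. Of the 7 tested chains, 5 were called in Hox-URE versus Hox-WT, 4 up and 1 down, where a call is an adjusted p under 0.05 with a fold change over 1.5. With the replicate number as a block, 4 were called, as *Il2ra* was not. Of all 13082 genes tested 37.2% were called there, 21.3% up and 15.9% down. In URE-AML versus Hox-WT 5 were called, 3 up and 2 down, against 43.2% of all genes, 23.0% up and 20.2% down. In URE-AML versus Hox-URE 4 were called, 1 up and 3 down, against 42.7% of all genes, 20.4% up and 22.4% down. The median log2 fold changes of the 7 were 1.55, 1.33 and -0.22 in these comparisons, with medians near 0 over all genes. Since *Il10ra* and *Il13ra1* passed the filter through their highest line, and *Il2ra* through both Hox lines together, these counts are a description.

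**Figure D2:**
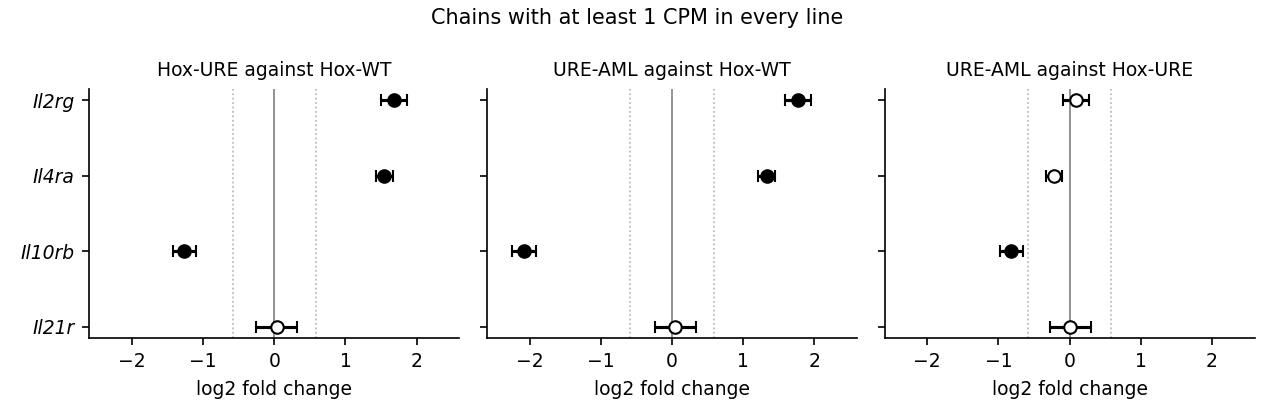
Log2 fold changes with SE (bars) of the 4 chains with at least 1 CPM in every line, for the 3 comparisons, with filled points for calls and dotted lines at a fold change of 1.5. *Il2rg* and *Il4ra* lay to the right and *Il10rb* to the left in both comparisons with Hox-WT, and *Il21r* lay within its SE of 0 in all 3.

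*Il21r*, the private chain of the IL-21 receptor (ENSMUSG00000030745, chromosome 7, 125603429 to 125633570, + strand), starts 23954 bases beyond the end of *Il4ra*. It had 247, 198 and 214 counts in Hox-WT, 285, 208 and 101 in Hox-URE, and 133, 195 and 229 in URE-AML. The levels were 7.91 ± 1.18, 8.05 ± 2.65 and 8.15 ± 2.43 CPM (SD, n = 3 each), and the ranges of all lines overlapped. *Il21r* was not called in any comparison, with log2 differences of 0.03, 0.04 and 0.01 whose 95% intervals ran from -0.61 to 0.67, from -0.60 to 0.69 and from -0.63 to 0.66 for Hox-URE and URE-AML versus Hox-WT and for URE-AML versus Hox-URE. The edgeR BH-adjusted p-values were 0.942, 0.916 and 0.983. These intervals hold fold changes of more than 1.5 in either direction. Within 500 kb of *Il4ra*, 6 other genes were tested, *Il21r* among them, and 0 were called up and 2 down in Hox-URE versus Hox-WT, with 1 up and 1 down in URE-AML, and 3 up and 0 down in URE-AML versus Hox-URE. Their median log2 fold changes were -0.39, -0.09 and 0.57. The shares over all genes were 21.3% up and 15.9% down, 23.0% and 20.2%, and 20.4% and 22.4% in these comparisons.

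*Il13ra1*, the partner of the IL-4 receptor α chain in the receptor that also takes IL-13 (ENSMUSG00000017057, chromosome X, 36112110 to 36171259, + strand), had 6, 3 and 8 counts in Hox-WT, 1, 0 and 3 in Hox-URE, and 14, 27 and 25 in URE-AML. All URE-AML libraries were above all others. Its log2 fold change in URE-AML versus Hox-WT was 2.23 ± 0.61 (SE, edgeR BH-adjusted p = 0.00967). Against Hox-URE its level in URE-AML was 17.0-fold higher (exact 95% counting interval 6.33 to 64.2, edgeR BH-adjusted p = 0.00114). The fitted log2 fold change there, 3.97, became 5.33 without Hox-URE library 3 and 3.40 without Hox-URE library 2, and stayed called in both. Hox-WT versus Hox-URE gave a ratio of 3.62 (counting interval 1.18 to 14.8) that was not called (edgeR BH-adjusted p = 0.112). The fitted log2 fold change of Hox-URE versus Hox-WT was -1.74. It became -1.18 without Hox-URE library 2, not called, and -3.11 without Hox-URE library 3, where it was called (adjusted p = 0.0326). With 0.974 CPM in URE-AML, this chain was far under *Il4ra*, which was at 89.9, 32.8 and 37.3 times its level per kilobase of exon in the URE-AML libraries. The mean of 53.3 ± 31.7 (SD, n = 3) was carried by the first library and was 35.0 without it. Of 8 neutrophil markers 7 were called up and 1 down in URE-AML versus Hox-WT (over all genes 23.0% and 20.2%), 0 up and 8 down in Hox-URE versus Hox-WT (21.3% and 15.9%), and 8 up and 0 down in URE-AML versus Hox-URE (20.4% and 22.4%). They had 8 of 8 at or over 1 CPM in URE-AML and a summed level of 9140 to 20900 CPM, against 4010 to 6860 in Hox-WT and 134 to 144 in Hox-URE, where *S100a9* and *Ltf* were at 0 counts. The marker called down was *Mpo*, myeloperoxidase, whose 5040 CPM made up most of the Hox-WT sum and which had 5.04 CPM in Hox-URE and 192 in URE-AML, while *Elane*, neutrophil elastase, had 181, 9.28 and 7307 CPM. Of 5 eosinophil markers, beside the same shares, 3 were called up and 2 down in URE-AML versus Hox-WT, 1 and 3 in Hox-URE versus Hox-WT, and 2 and 0 in URE-AML versus Hox-URE. The lines Hox-WT, Hox-URE and URE-AML had 2, 0 and 2 of the 5 at or over 1 CPM, with a summed level of 19.9 to 25.3, 0.874 to 2.20 and 11.6 to 47.3 CPM. *Epx*, eosinophil peroxidase, had 0.372 ± 0.435 CPM in Hox-WT, 0 counts in Hox-URE and 17.5 ± 13.3 CPM in URE-AML (SD, n = 3 each), and *Il5ra*, the IL-5 receptor α chain, was at 0 counts in both UREd/d lines. The part of these markers in the *Il13ra1* level was not tested.

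*Il10rb* and *Il10ra*, the chains of the IL-10 receptor, went in opposite directions in Hox-URE. *Il10rb* (ENSMUSG00000022969, chromosome 16, 91406164 to 91425834, + strand) had 1638, 2117 and 2046 counts in Hox-WT, 583, 780 and 647 in Hox-URE, and 396, 357 and 375 in URE-AML. The levels of 69.2 ± 7.22, 28.9 ± 6.62 and 16.3 ± 0.545 CPM (SD, n = 3 each) stepped down from Hox-WT to Hox-URE to URE-AML, with no overlap between any lines. *Il10rb* fell with log2 fold changes of -1.26 ± 0.16 (SE, edgeR BH-adjusted p = 0.000115) for Hox-URE and -2.08 ± 0.17 (SE, edgeR BH-adjusted p = 2.69e-06) in URE-AML, versus Hox-WT. URE-AML was lower than Hox-URE with a log2 difference of -0.82 ± 0.16 (SE, edgeR BH-adjusted p = 0.00168), which was not called in a test against a fold change of 1.5 (adjusted p = 0.0851).

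*Il10ra*, the chain that binds IL-10 (ENSMUSG00000032089, chromosome 9, 45253837 to 45269149, - strand), had 0 counts in each Hox-WT library, 188, 169 and 210 in Hox-URE, and 0, 1 and 1 in URE-AML. Its 8.19 ± 2.20 CPM in Hox-URE (SD, n = 3) were at least 76.0-fold higher than in Hox-WT, from a floor of 3 counts per library (edgeR BH-adjusted p = 5.68e-06). Against URE-AML the ratio was 275 (exact 95% counting interval 75.8 to 2280, edgeR BH-adjusted p = 6.24e-06). URE-AML and Hox-WT were both under the floor, and no call was made between them (edgeR BH-adjusted p = 0.114). Hox-URE was thus the line with both IL-10 receptor chains over the floor, with *Il10rb* at 3.31 ± 0.81 times the *Il10ra* level per kilobase (SD, n = 3). The summed level of 8 mast cell and basophil markers was also highest in that line, with 6 at or over 1 CPM. It was 1800 to 6370 CPM, against 607 to 927 in Hox-WT and 43.5 to 78.5 in URE-AML. *Cpa3* gave 2663 ± 1840 CPM and *Prss34* 705 ± 336 CPM of the Hox-URE sum (SD, n = 3 each). Of 6 tested, 5 were called up and 0 down in Hox-URE versus Hox-WT (over all genes 21.3% and 15.9%). The counts were 1 and 4 in URE-AML versus Hox-WT (23.0% and 20.2%), and 0 and 6 in URE-AML versus Hox-URE (20.4% and 22.4%). *Fcer1a* was at 0 counts in Hox-WT and Hox-URE and *Tpsb2* in Hox-WT. The part of these markers in the *Il10ra* level was not tested. In bulk libraries fewer cells of a type and less RNA per cell cannot be told apart.

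*Il10rb* lies in a cluster of class II cytokine receptor genes on chromosome 16 with *Ifnar1*, *Ifnar2* and *Ifngr2*, which encode chains of the interferon receptors. These neighbours were looked at after the *Il10rb* values were seen. *Ifngr2* had 16.8 ± 2.98 CPM in Hox-WT, 4.87 ± 1.49 CPM in Hox-URE and 12.5 ± 1.04 CPM in URE-AML (SD, n = 3 each), with a log2 difference of -1.80 ± 0.23 (SE, edgeR BH-adjusted p = 0.000116) in Hox-URE versus Hox-WT and of -0.42 ± 0.22 (SE, edgeR BH-adjusted p = 0.123) in URE-AML. In URE-AML versus Hox-URE, where *Il10rb* was called lower, *Ifngr2* went up by 1.37 ± 0.23 on the log2 scale (SE, edgeR BH-adjusted p = 0.000533). *Ifnar1* had log2 fold changes of -1.07 ± 0.16 (SE, edgeR BH-adjusted p = 0.000321) and -0.69 ± 0.16 (SE, edgeR BH-adjusted p = 0.00382), and *Ifnar2* of -0.47 and -0.45, neither called (edgeR BH-adjusted p = 0.075 and 0.0843). Within 500 kb of *Il10rb*, of 16 other tested genes 1 was called up and 8 down in Hox-URE versus Hox-WT (over all genes 21.3% and 15.9%), 1 and 2 in URE-AML versus Hox-WT (23.0% and 20.2%), and 5 and 1 in URE-AML versus Hox-URE (20.4% and 22.4%). Their median log2 fold changes were -0.75, -0.40 and 0.22. The median of the other tested genes of chromosome 16 was -0.07 in Hox-URE versus Hox-WT and 0.01 in URE-AML.

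The private chains of the IL-2, IL-7 and IL-9 receptors had at most 37 counts in any library. *Il2ra*, the IL-2 receptor α chain CD25 (ENSMUSG00000026770, chromosome 2, 11642807 to 11693193, + strand), had 11, 6 and 9 counts in Hox-WT, 10, 37 and 37 in Hox-URE, and 0 in each URE-AML library. The first Hox-URE library lay within the Hox-WT range and the other two above it. The log2 fold change in Hox-URE versus Hox-WT was 1.98 ± 0.64 (SE, edgeR BH-adjusted p = 0.0301). With the replicate number as a block it was 1.81 and no longer called (adjusted p = 0.0732). It was also not called without Hox-URE library 2 or 3 (adjusted p = 0.0922 and 0.101) or without any one of the Hox-WT libraries (0.0573, 0.102 and 0.088). URE-AML had *Il2ra* at least 2.39-fold lower than Hox-WT (edgeR BH-adjusted p = 0.00757) and at least 9.65-fold lower than Hox-URE (edgeR BH-adjusted p = 0.000718), from the floor of 3 counts per library. With only the 6 libraries compared, *Il2ra* was tested in Hox-URE versus Hox-WT and in neither comparison with URE-AML. It thus passed the count filter through libraries of both Hox lines together. In these fits 4 of 5 tested chains were called in URE-AML versus Hox-WT (3 up, 1 down), beside 5515 of 12427 genes (2950 up, 2565 down). In URE-AML versus Hox-URE 3 of 6 were called (1 up, 2 down), beside 5331 of 12481 genes (2512 up, 2819 down).

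*Il7r*, the IL-7 receptor α chain of lymphoid progenitors (ENSMUSG00000003882, chromosome 15, 9505788 to 9530176, - strand), had 0 counts in all libraries of Hox-WT and Hox-URE, and 5, 1 and 0 in URE-AML. *Il9r*, the IL-9 receptor α chain (ENSMUSG00000020279, chromosome 11, 32187541 to 32200279, - strand), had 2, 1 and 1 counts in Hox-WT, 0, 0 and 1 in Hox-URE, and 0, 0 and 1 in URE-AML. *Il2rb*, the β chain shared by the IL-2 and IL-15 receptors (ENSMUSG00000068227, chromosome 15, 78479256 to 78495271, - strand), had 1 count in the first Hox-URE library and 0 in the other 8. Without a filter on low counts, *Il7r*, *Il9r* and *Il2rb* were not called in any comparison. The floor of 3 counts was 0.104 to 0.153 CPM, so levels under that could not be seen at this depth. Markers of lymphoid cells were present in part. Of 11 B cell markers, the lines Hox-WT, Hox-URE and URE-AML had 6, 5 and 0 at or over 1 CPM, and their summed level was 204 to 344, 97.1 to 183 and 0.242 to 0.643 CPM. *Ebf1*, a factor of early B cells, had 42.5, 36.4 and 0.0618 CPM, and *Pax5* and *Ms4a1* were at 0 counts in Hox-URE and URE-AML. Of 10 T cell markers, 1, 2 and 1 were at or over 1 CPM, with *Cd3e*, *Cd3g* and *Cd8a* at 0 counts in all lines. The summed T cell level was 4.61 to 6.44, 6.54 to 12.8 and 20.1 to 33.2 CPM, and *Cd28* accounted for 26.9 CPM in URE-AML. Of 8 NK and innate lymphoid markers, 1, 2 and 1 were at or over 1 CPM, with *Ncr1*, *Klrk1* and *Gzma* at 0 counts in all lines. The summed levels were 4.46 to 5.53, 44.8 to 197 and 0.807 to 2.23 CPM. In Hox-URE the sum was led by *Il1rl1* at 109 ± 76.3 CPM and *Gata3* at 12.8 ± 0.293 CPM (SD, n = 3 each). The part of these lymphoid markers in the levels of *Il2ra*, *Il7r* and *Il21r* was not tested.

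Levels of different genes can be set side by side per length, as CPM per kilobase of merged exons. In Hox-WT the order was *Il2rg* (20.2 ± 4.30), *Il10rb* (18.2 ± 1.90), *Il4ra* (4.74 ± 0.373) and *Il21r* (2.38 ± 0.355; SD, n = 3), and *Il2rg* and *Il10rb* did not differ beyond their spread. In Hox-URE *Il2rg* led at 65.0 ± 12.8, followed by *Il4ra* at 13.9 ± 1.08, *Il10rb* at 7.58 ± 1.74, *Il21r* at 2.42 ± 0.798 and *Il10ra* at 2.34 ± 0.628, of which *Il21r* and *Il10ra* did not differ beyond their spread. In URE-AML the order was *Il2rg* at 69.1 ± 5.45, *Il4ra* at 11.9 ± 1.54, *Il10rb* at 4.29 ± 0.143, *Il21r* at 2.45 ± 0.730 and *Il13ra1* at 0.262 ± 0.0995. Thus *Il10rb* ranked above *Il4ra* in Hox-WT and below it in both UREd/d lines. Among the 13082 tested genes *Il2rg* stood at percentile 80.0 per kilobase in Hox-WT, 93.2 for Hox-URE and 93.8 for URE-AML, while *Il10rb* stood at 78.2, 59.8 and 47.8.

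**Figure D3:**
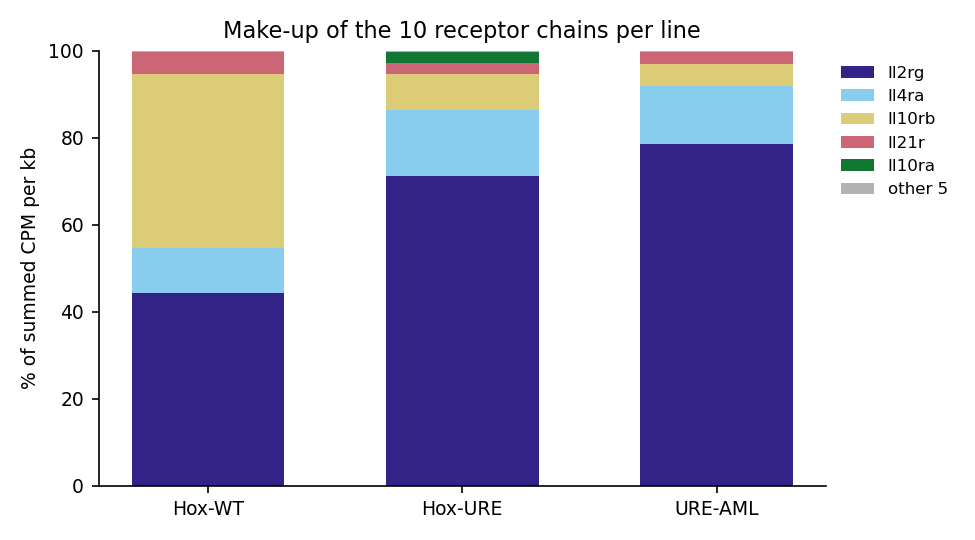
Share of each chain in the summed CPM per kilobase of the 10 chains, as the percentage of the line's total (stacked bars, means of 3 libraries). *Il2rg* made up 44.3% in Hox-WT, 71.1% for Hox-URE and 78.5% for URE-AML, and *Il10rb* 39.9%, 8.29% and 4.88%.

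The ratio of the γ chain to the IL-4 receptor α chain put *Il2rg* at 4.31 ± 1.20 times *Il4ra* per kilobase in Hox-WT, 4.74 ± 1.20 for Hox-URE and 5.85 ± 0.881 for URE-AML (SD, n = 3 each), and these ranges overlapped between Hox-WT and the others. *Il4ra* to *Il21r* went from 2.01 ± 0.199 in Hox-WT to 6.20 ± 2.28 for Hox-URE and 5.39 ± 2.67 for URE-AML (SD, n = 3 each), with no overlap between Hox-WT and the UREd/d lines.

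Pathway genes came from lists of receptor partners, kinases, STATs, feedback genes and reported targets. Each count that follows stands beside the shares of all tested genes called, which were 21.3% up and 15.9% down in Hox-URE versus Hox-WT, 23.0% and 20.2% in URE-AML, and 20.4% and 22.4% in URE-AML versus Hox-URE. Of 12 other receptor chains, 8 were tested, and in Hox-URE versus Hox-WT 4 were called up and 2 down, in URE-AML 3 and 3, and in URE-AML versus Hox-URE 0 and 3. Their median log2 fold changes were 0.94, -0.17 and -1.32 in these comparisons, beside medians near 0 over all genes, as for each list that follows. *Crlf2*, the TSLP receptor chain that pairs with the IL-7 receptor α chain, had 30.7 ± 8.02, 64.4 ± 5.99 and 17.5 ± 0.803 CPM (SD, n = 3 each). It rose in Hox-URE (log2 fold change 1.07 ± 0.18, SE, edgeR BH-adjusted p = 0.000592) and fell in URE-AML (-0.81 ± 0.18, SE, edgeR BH-adjusted p = 0.00286). *Il15ra*, which presents IL-15 to the β and γ chains, fell in both, with log2 fold changes of -0.71 ± 0.18 and -0.78 ± 0.18 (SE, edgeR BH-adjusted p = 0.00849 and 0.00459). *Il27ra* had 0.295, 1.68 and 0.766 CPM and was called higher in both (edgeR BH-adjusted p = 0.00219 and 0.0465). Chains of the IL-3 receptor also rose, as *Il3ra* did with 11.3, 109 and 37.8 CPM.

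Ligand genes were low. Of 13 ligand genes 3 were tested, with 2 called up and 1 down in Hox-URE, 1 and 2 in URE-AML, and 0 and 2 in URE-AML versus Hox-URE (medians 3.70, -2.27 and -3.67), and *Il2*, *Il9*, *Il10* and *Il21* were at 0 counts in every library. *Tslp*, the ligand of *Crlf2*, had 0.130 ± 0.0698 CPM in Hox-WT, 7.41 ± 0.714 CPM in Hox-URE and 0.579 ± 0.0190 CPM in URE-AML (SD, n = 3 each), with a log2 fold change in Hox-URE of 5.77 ± 0.35 (SE, edgeR BH-adjusted p = 6.04e-07). *Il7* had 0.230, 3.02 and 0.0428 CPM, and its log2 fold change in Hox-URE versus Hox-WT was 3.70 ± 0.46 (SE, edgeR BH-adjusted p = 8.94e-05), in a line with 0 counts of *Il7r*. *Il15* had 8.09 ± 3.14 CPM in Hox-WT and 0.739 and 0.599 in Hox-URE and URE-AML, and fell in both (log2 fold change -3.51 ± 0.68 and -3.77 ± 0.69, SE, edgeR BH-adjusted p = 0.00154 and 0.000885).

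**Figure D4:**
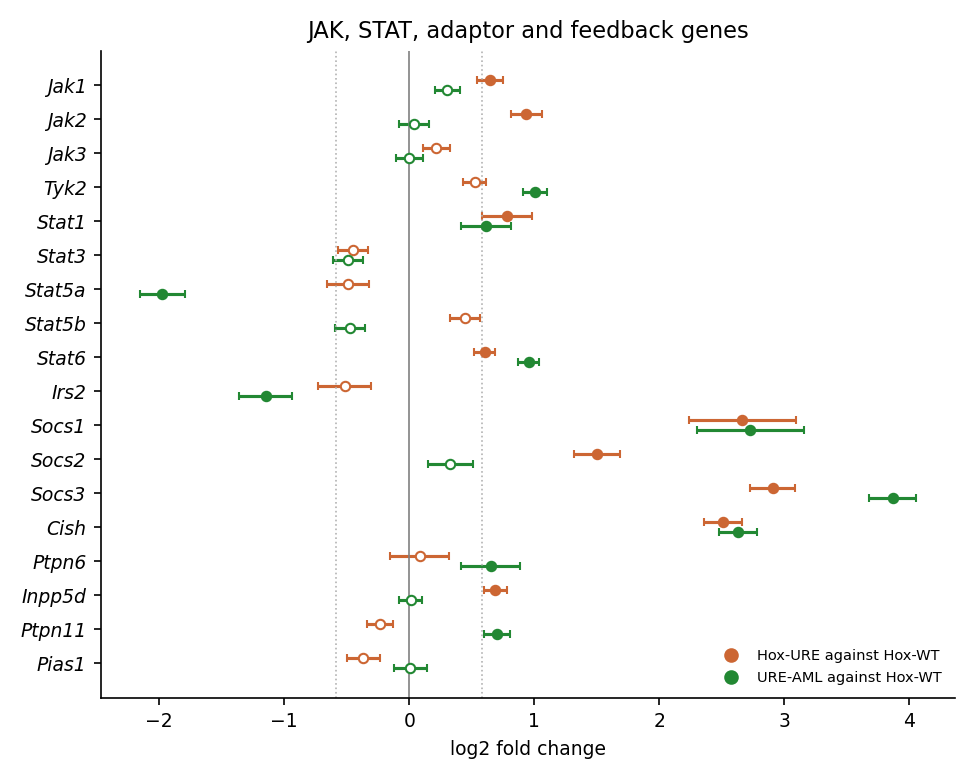
Log2 fold changes with SE (bars) of JAK, STAT, adaptor and feedback genes versus Hox-WT, with filled points for calls and dotted lines at a fold change of 1.5; *Irs1*, at 0 counts in Hox-WT, is left out. *Socs1*, *Socs3* and *Cish* lay farthest to the right in both lines, and *Jak3* and *Stat3* were not called in either.

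All 4 JAK genes and all 5 STAT genes were tested. In Hox-URE versus Hox-WT 2 JAK genes were called up and 0 down, in URE-AML 1 and 0, and in URE-AML versus Hox-URE 0 and 1, with medians of 0.58, 0.17 and -0.28. *Jak3*, the kinase of the γ chain, had 65.9, 76.6 and 65.9 CPM and was not called (edgeR BH-adjusted p = 0.123 and 1.0 versus Hox-WT), and it was looked at together with *Stat3* after their values were seen. *Jak1*, on the IL-4 and IL-10 receptor α chains, rose in Hox-URE (log2 fold change 0.65 ± 0.10, SE, edgeR BH-adjusted p = 0.000488). *Tyk2*, the kinase of the IL-10 receptor β chain, rose in URE-AML (1.01 ± 0.10, SE, edgeR BH-adjusted p = 9.49e-06). STAT genes were called 2 up and 0 down in Hox-URE, 2 and 1 in URE-AML, and 0 and 2 in URE-AML versus Hox-URE, with medians of 0.445, -0.48 and -0.17. *Stat6*, the factor of IL-4, rose from 76.4 ± 5.58 CPM in Hox-WT to 116 ± 3.46 for Hox-URE and 148 ± 5.73 for URE-AML (SD, n = 3 each), with log2 fold changes of 0.60 ± 0.08 and 0.95 ± 0.08 (SE, edgeR BH-adjusted p = 0.000162 and 4.42e-06). *Stat3*, the factor of IL-10, had 93.3, 68.3 and 66.3 CPM. Its log2 fold changes versus Hox-WT were -0.45 ± 0.12 for Hox-URE and -0.49 ± 0.12 for URE-AML (SE, edgeR BH-adjusted p = 0.00938 and 0.00515). Both passed the p threshold and were not called only because they were short of a 1.5-fold change. *Stat5a*, a factor of the IL-2 family and of IL-3, fell in URE-AML by a log2 difference of -1.98 ± 0.18 (SE, edgeR BH-adjusted p = 6.54e-06).

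Of 10 adaptor and feedback genes, 6 were called up and 0 down in Hox-URE, 5 and 1 in URE-AML, and 2 and 4 in URE-AML versus Hox-URE, with medians of 1.10, 0.68 and 0.09. *Cish*, a STAT5 target that dampens cytokine receptors, rose from 21.9 ± 3.52 CPM to 125 ± 14.6 in Hox-URE and 136 ± 18.4 for URE-AML (SD, n = 3 each). *Socs3*, the inhibitor that IL-10 and IL-6 induce, rose from 11.6 ± 0.543 CPM to 86.9 ± 23.2 and 169 ± 18.1. *Socs1*, which holds back IL-4 signalling, rose from 2.30 ± 0.184 CPM to 14.7 ± 10.1 and 15.2 ± 1.61. All of *Cish*, *Socs3* and *Socs1* were called in both UREd/d lines, with an edgeR BH-adjusted p of at most 0.000512. *Irs2*, an adaptor that IL-4 receptors use, fell in URE-AML (log2 fold change -1.15 ± 0.21, SE, edgeR BH-adjusted p = 0.000982). IL-3 and IL-6 were in all cultures and use these same STATs and inhibitors, and no library without them was examined.

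Genes that IL-4 and IL-13 induce in macrophages were mostly low. Of 16 in the list 8 were tested, with 4 called up and 2 down in Hox-URE, 6 and 1 in URE-AML, and 2 and 1 in URE-AML versus Hox-URE (medians 1.49, 2.68 and 0.09). *Socs1* and *Cish* are in this list as well as among the feedback genes above, and their calls are counted in both. *Retnla*, *Mrc1*, *Ccl22* and *Ccl24* were at 0 counts in Hox-WT and Hox-URE, and *Ccl22* and *Ccl24* also in URE-AML. *Tgm2*, a transglutaminase, had 1.39 ± 0.192 CPM in Hox-WT, 1004 ± 701 CPM in Hox-URE and 1336 ± 152 CPM in URE-AML (SD, n = 3 each), and rose in both (log2 fold change 9.49 ± 0.56 and 9.91 ± 0.56, SE, edgeR BH-adjusted p = 5.31e-07 and 2.1e-07). *Pparg*, a nuclear receptor of lipid metabolism, had 60.6 ± 14.9 CPM in URE-AML (SD, n = 3) and 0.0125 and 0 in the Hox lines. *Clec10a*, a lectin of alternatively activated macrophages, went the other way, at 5.06 ± 1.26 CPM in Hox-WT (SD, n = 3) and 0.0340 and 0 in the UREd/d lines. Of 10 IL-10 response genes 9 were tested, with 2 called up and 3 down in Hox-URE, 3 and 4 in URE-AML, and 2 and 1 in URE-AML versus Hox-URE (medians -0.125, 0.44 and 0.03), and *Socs3* is again counted in both. *Ddit4* rose with log2 fold changes of 1.04 ± 0.20 and 1.55 ± 0.20 (SE, edgeR BH-adjusted p = 0.00162 and 9.13e-05), and *Bcl3*, an inhibitor of inflammatory transcription, fell from 1.64 CPM to 0.258 and 0.266. *Fcgr1*, an Fc receptor, had 7.79 ± 1.42 CPM in Hox-WT (SD, n = 3) and 0 counts in all libraries of the UREd/d lines. Monocyte and macrophage markers moved with these genes in part, with 7 of 8 tested and 1 called up and 5 down in Hox-URE versus Hox-WT, 1 up and 3 down in URE-AML, and 2 up and 1 down in URE-AML versus Hox-URE. Of the 8, the lines had 5, 4 and 4 at or over 1 CPM. *Adgre1*, the macrophage antigen F4/80, had 274, 1.43 and 3.73 CPM, *Mertk* was at 0 counts in all lines and *Csf1r* in Hox-URE. The summed level was 351 to 440, 842 to 943 and 175 to 350 CPM, and *Ccr2* gave 885 CPM of it in Hox-URE. The part of these markers in the levels of *Clec10a* and *Fcgr1* was not tested.

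The genes whose log2 CPM followed a member most closely over the 9 libraries were sought among all tested genes, as a description in which the points share 3 lines. For *Il4ra* these were *Nlrp3* (Pearson r = 0.995), *Chst14* (0.994) and *Fam78b* (0.992). For *Il2rg* they were *Acad10* (0.996), *Qsox1* (0.995) and *Fxyd5* (0.993). For *Il10rb* they were *Procr* (0.995), *Ufsp2* (0.993) and *Neurl2* (0.993), and *Procr*, the endothelial protein C receptor of stem cells, stepped down from 20.7 to 2.42 to 0.296 CPM. *Il21r* had weaker matches in *Ankrd12* (0.925), *Dleu2* (0.908) and *Osbpl7* (0.85), which like *Il21r* had nearly equal line means. A likeness of this kind over 3 lines says nothing of shared control.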

How the data were processed

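Poly-A RNA was sequenced from stranded libraries of 3 mouse lines. The authors quantified reads with salmon and summarized them to genes with tximport, and deposited estimated counts per gene, which are whole numbers without scaling for depth. The submitters' notes name GRCm38, and salmon's version is not given in the sources used here. Gene models, exon lengths and positions came from GENCODE M21 (GRCm38).

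The filterByExpr filter (minimum count 10) passed 13082 genes, and 0.0499% of counts lay outside them. All 9 libraries were fitted in 1 quasi-likelihood model (edgeR 4.0.16, R 4.3.3) with line as the factor and TMM factors of 0.938 to 1.04. The tests were two-sided F tests, with Benjamini-Hochberg adjustment over all tested genes, and a call needed both a 1.5-fold change and an adjusted p below 0.05. The SE was taken from the size of each log2 fold change and its F value. A fold against a line at 0 in all libraries is a bound that sets each library at 3 counts (the floor), and against a line with a few counts it is the ratio of summed counts. Counting intervals are exact at 95% and cover counting error only. Alternatives were other scalings (RLE, upper-quartile, library size), filters, the replicate block, a test against a fold of 1.5, DESeq2 1.42.0, the 6 libraries compared, no fold threshold, longest transcript lengths, fold changes less the median of the chromosome (no test) and leaving out each library.

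The members and lists were chosen with earlier results of these data known. Named were the 10 members, *Spi1*, listed genes called at least once with at least 1 CPM in a line (a selection is printed), and the 3 genes most alike to each member at or over 1 CPM in every line, leaving out predicted genes and pseudogenes. Marker genes, genes at 0 counts, the chromosome 16 neighbours, *Jak3* and *Stat3* were named outside this rule, after their values were seen. Genes overlapping a member had at most 10 counts. Same-numbered Hox-URE and Hox-WT libraries deviated together (correlations 0.393, 0.216 and 0.294). The labels give no pairing, and correlations of differently numbered libraries were not set beside these. The fit reported has no block, and the block is an alternative. No batch was labelled.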

Additional observations from a re-analysis of the deposited data

How the results depend on the processing

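The calls of *Il4ra*, *Il2rg*, *Il10rb* and *Il10ra* against Hox-WT kept direction and side of the thresholds under all alternatives that gave them a value. With at least 10 counts in every library, 3200, 3602 and 3553 genes were called in Hox-URE against Hox-WT, URE-AML against Hox-WT and URE-AML against Hox-URE, and 3, 3 and 1 members, of 4 tested, since *Il10ra*, *Il2ra* and *Il13ra1* were then not tested. The replicate block gave 4908, 5678 and 5584 genes and 4, 5 and 4 members, *Il2ra* being the member call lost. Same-numbered libraries had correlations of 0.0584 to 0.188 in URE-AML against Hox-WT and 0.0758 to 0.158 in URE-AML against Hox-URE. These were lower than between Hox-URE and Hox-WT, and they were not taken as pairs there, though no cutoff was set for this. With lengths of the longest transcript, *Il2rg* to *Il4ra* in URE-AML was 7.32, *Il10rb* to *Il10ra* in Hox-URE 4.51 and *Il4ra* to *Il21r* in Hox-WT 1.73. The uncalled difference of *Il21r* turned sign with library size only (-0.071, Hox-URE against Hox-WT), upper-quartile factors (-0.00066) and the 6 libraries compared (-0.0047, both URE-AML against Hox-URE). Leaving out 1 library it ran from -0.20 to 0.26, from -0.11 to 0.27 and from -0.22 to 0.24, and *Il2rg* in URE-AML against Hox-URE from -0.068 to 0.20. *Il2ra* in Hox-URE against Hox-WT kept its call in 11 of the 18 alternatives with a test (adjusted p 0.00313 to 0.102). The cause was not tested. Depth limits *Il7r*, *Il9r* and *Il2rb*.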
